A study of Mus musculus with 3 samples.

Results

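Endocardial cells, the endothelium that lines the heart chambers, were picked out of single-cell RNA data from mouse ventricles by a rule on marker genes. A cell barcode was taken when it held at least 4 unique molecular identifiers (UMIs, each standing for 1 captured RNA molecule) summed over Npr3, Smoc1, Tmem108 and Chrm3. It also needed at least 2 UMIs over the endothelial genes Ptprb, Pecam1, Cdh5 and Emcn. It could hold at most 3 UMIs over the fibroblast, macrophage and pericyte genes Pdgfra, Dcn, Csf1r, Mrc1 and Abcc9, and at most 2 over the lymphatic genes Reln, Mmrn1 and Prox1. This gate took 253 of 18021 barcodes (1.40%), namely 39 of 6856 in the TAC+ART library, 78 of 7413 in the TAC library and 136 of 3752 in the Sham library. The 16 genes of the rule chose the members, so their levels describe the choice and are no finding.

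The mice of all groups carried the C57B6 background, and each library was made from ventricular tissue of 3 hearts pooled before sequencing on the 10x Genomics platform. TAC+ART animals had undergone transverse aortic constriction, surgery that narrows the aortic arch and so loads the left ventricle with pressure, and received artesunate, an antimalarial artemisinin derivative. TAC animals had the same constriction and Sham animals none, and both received vehicle. The tissue had been stored frozen. The sources used here do not give whether whole cells or nuclei were loaded, the age and sex of the animals, or the dose of the drug. With 1 library per group there is no replicate error and no test between groups was possible. Intervals given here are 95% intervals that cover counting error only, and differences between animals or preparations are outside them. For levels and ratios of summed UMIs, the uneven spread of a gene over barcodes is outside them too, so they are too narrow where few barcodes hold most UMIs.

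The endocardium is a sheet of endothelium in contact with the blood of the chambers. It signals to the muscle beneath it, and neuregulin 1, made by endocardial and other endothelial cells and sensed by ERBB receptors on cardiomyocytes, is a well-studied signal of this kind, needed for trabeculation during development. In adult mice endocardial cells are known for Npr3, the clearance receptor of natriuretic peptides, and they lack much of the fatty acid uptake machinery of cardiac capillaries.

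Members had a depth close to that of their libraries. The median was 4671 UMIs per member in TAC+ART, 5116 in TAC and 4623 in Sham, against 4524.5, 4811 and 4310 over all barcodes of the TAC+ART, TAC and Sham libraries. Summed over members, the libraries held 188910, 425743 and 640769 UMIs in TAC+ART, TAC and Sham, so TAC+ART values carry the widest intervals. Mitochondrial genes took 0.933%, 0.802% and 0.910% of these UMIs in TAC+ART, TAC and Sham. No barcode sequence of a member occurred among the members of another library, while 27 sequences were shared between the whole TAC+ART and TAC libraries, 20 between TAC and Sham and 20 between TAC+ART and Sham.

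The number of members differed between libraries, and 1 gene of the rule moved with it. The gate held 0.569% of barcodes in TAC+ART (0.405 to 0.777), 1.05% in TAC (0.833 to 1.31) and 3.62% in Sham (3.05 to 4.27). On the log2 scale the share was lower by 0.89 in TAC+ART than in TAC (log2 ratio -0.89, interval -1.44 to -0.33) and the TAC to Sham ratio was -1.78 (-2.18 to -1.39). Barcodes that met both positive limits were 455 of 6856 in TAC+ART, 531 of 7413 in TAC and 271 of 3752 in Sham. The first exclusion set let pass 12.3% of them in TAC+ART, 19.8% in TAC and 59.4% in Sham.

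Within that exclusion set the gene was Dcn, which encodes decorin, a proteoglycan of fibroblast matrix. Barcodes that met both positive limits held a median of 7 Dcn UMIs in TAC+ART, 5 in TAC and 2 in Sham, and a median of 1, 1 and 0 UMIs over the other genes of the set in TAC+ART, TAC and Sham. At least 1 Dcn UMI was found in 97.7% of all TAC+ART barcodes, 97.6% of all TAC barcodes and 78.9% of all Sham barcodes. In cardiomyocyte-like barcodes, a type that should lack the gene, the same was true of 95.3% in TAC+ART, 95.4% in TAC and 67.0% in Sham. Dcn UMIs were thus widespread in barcodes of other types, most of all in TAC+ART and TAC.

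With the limit on Dcn dropped and the rest of the rule kept, the gate held 922 barcodes, 325 in TAC+ART, 387 in TAC and 210 in Sham. These made up 4.74% of TAC+ART barcodes (4.25 to 5.27), 5.22% of TAC barcodes (4.73 to 5.75) and 5.60% of Sham barcodes (4.88 to 6.38). The log2 ratio of shares was then -0.14 between TAC+ART and TAC (-0.35 to 0.07) and -0.10 between TAC and Sham (-0.34 to 0.14). This wider gate was added after the values had been seen, and its values stand beside those of the gate below. The share of the gate thus moved with the limit on Dcn, and is a description of the rule rather than of cell numbers.

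**Figure D1:**
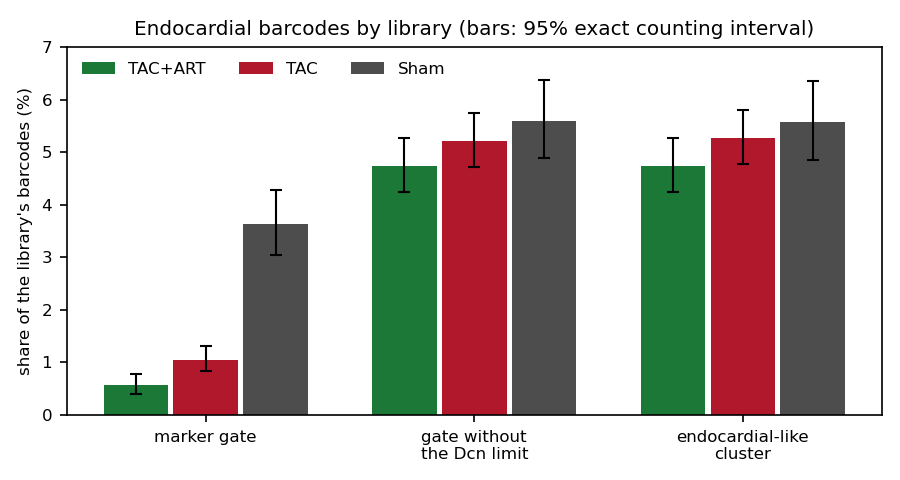
Share of each library's barcodes (percent, vertical axis) in the marker gate, in the gate without the Dcn limit and in the endocardial-like cluster, for TAC+ART (green), TAC (red) and Sham (grey), with 95% exact binomial intervals. The marker gate holds 0.569%, 1.05% and 3.62% in TAC+ART, TAC and Sham, while the other 2 definitions hold between 4.74% and 5.60%.

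A grouping of all barcodes by their expressed genes gave 28 clusters, and 1 was endocardial-like, with 325 barcodes in TAC+ART, 391 in TAC and 209 in Sham. It held 36 of 39 members in TAC+ART (92.3%), 64 of 78 in TAC (82.1%) and 113 of 136 in Sham (83.1%), in all 213 of 253. The members in turn covered 11.1% of the cluster in TAC+ART, 16.4% in TAC and 54.1% in Sham. A smooth muscle-like cluster held 7 members, 0 in TAC+ART, 3 in TAC and 4 in Sham. A doublet score marked 0 of 39 members in TAC+ART, which allows up to 9.03%, 7 of 78 in TAC and 1 of 136 in Sham. Without the Dcn limit it marked 9.85% of the gate's barcodes in TAC+ART, 6.20% in TAC and 2.38% in Sham. Over all barcodes it marked 5.48%, 5.94% and 3.01% in TAC+ART, TAC and Sham.

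Members near the limits were few on the side of the gate genes and many on the side of the exclusion set. With 4 or 5 UMIs over the gate genes there were 4 members in TAC+ART, 5 in TAC and 10 in Sham, and just outside, with 2 or 3 UMIs, 28 in TAC+ART, 39 in TAC and 38 in Sham. With 2 or 3 UMIs over the first exclusion set there were 30 members in TAC+ART, 68 in TAC and 79 in Sham, and just outside, with 4 or 5, 59 in TAC+ART, 98 in TAC and 33 in Sham. Of the barcodes just outside on that side, 47 in TAC+ART, 86 in TAC and 31 in Sham lay in the endocardial-like cluster.

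The 4 gate genes were found together in most members. All 4 had a UMI in 53.8% of TAC+ART members, 53.8% of TAC members and 56.6% of Sham members, and the median sum was 19 UMIs in TAC+ART, 26.5 in TAC and 37 in Sham. Npr3 stood at 1450, 1017 and 2005 CPM (counts per 1000000, the gene's UMIs scaled to the sum over all genes and barcodes of the set) in TAC+ART, TAC and Sham members. Tmem108, a transmembrane protein, had 2229, 3448 and 3031 CPM in TAC+ART, TAC and Sham. Chrm3, a muscarinic acetylcholine receptor, had 1652, 1618 and 2583 CPM, and Smoc1, a secreted matricellular protein that modulates BMP signalling, had 556, 533 and 595 CPM in TAC+ART, TAC and Sham.

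Genes outside the rule bore on the label. Cdh11, a cadherin, had a UMI in 76.9% of TAC+ART members, 84.6% of TAC members and 67.6% of Sham members. In other endothelial barcodes, which met the same endothelial and exclusion limits with at most 1 UMI over the gate genes, it was found in 5.42% in TAC+ART, 9.66% in TAC and 2.78% in Sham. Those barcodes were shallower, with medians of 3220, 3535.5 and 3412 UMIs in TAC+ART, TAC and Sham. After each barcode was thinned to 1000 UMIs the Cdh11 shares were 43.6%, 67.9% and 45.6% in TAC+ART, TAC and Sham members, against 2.0%, 2.93% and 1.5% in other endothelial barcodes of the TAC+ART, TAC and Sham libraries.

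Other factors known from endocardium and valves were less specific. Gata4, a cardiac transcription factor, was found in 46.2% of TAC+ART, 48.7% of TAC and 55.1% of Sham members, against 7.99%, 8.31% and 6.75% of other endothelial barcodes in TAC+ART, TAC and Sham. It was also found in 56.0%, 55.5% and 55.7% of fibroblast-like and 61.8%, 49.4% and 75.2% of cardiomyocyte-like barcodes in TAC+ART, TAC and Sham. Thinned to 1000 UMIs, the Gata4 shares were 15.4%, 19.2% and 20.6% in TAC+ART, TAC and Sham members and 4.43%, 2.08% and 1.71% in other endothelial barcodes. Plvap, the diaphragm protein of fenestrae and caveolae, was found in 56.4%, 59.0% and 43.4% of TAC+ART, TAC and Sham members, against 6.70%, 8.44% and 3.32% of other endothelial barcodes, and thinned to 1000 UMIs in 20.5%, 20.5% and 14.7% of members against 2.43%, 2.69% and 0.642%. Nfatc1, a factor of endocardial cushions and valves, did not separate members, with 48.7% of TAC+ART, 52.6% of TAC and 36.8% of Sham members against 24.8%, 25.4% and 28.1% of other endothelial barcodes and 46.7%, 51.9% and 40.4% of macrophage-like barcodes in TAC+ART, TAC and Sham. Thinned to 1000 UMIs, the Nfatc1 shares were 10.3%, 16.7% and 4.41% in TAC+ART, TAC and Sham members and 9.14%, 7.7% and 10.5% in other endothelial barcodes. Hapln1, a link protein of hyaluronan matrix, had 0, 0 and 1 UMIs in TAC+ART, TAC and Sham members. Cdh11 and Plvap thus set members apart from other endothelium, Gata4 set them apart from other endothelium but not from fibroblast-like or cardiomyocyte-like barcodes, and Nfatc1 and Hapln1 did not set them apart.

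Of 12 endocardial genes listed outside the rule, 10 passed the filter of 20 UMIs over members and other endothelial barcodes in each library. In 8 of these the level was at least 1.5-fold higher in members than in other endothelial barcodes in all 3 libraries, and in none was it lower. Over all genes 570 of 10843 (5.26%) were higher and 752 (6.94%) were lower by that rule. The list's median log2 ratio was 2.87 in TAC+ART, 2.66 in TAC and 3.24 in Sham, against 0.01, -0.08 and -0.03 over all genes in TAC+ART, TAC and Sham. Since the gate picked the barcodes by correlated genes, these ratios describe the members and were not tested.

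The genes that stood highest in members over other endothelial barcodes had varied roles. First was the transcript 1700024B18Rik, with 12, 23 and 33 UMIs in TAC+ART, TAC and Sham members and 1, 2 and 0 UMIs in the other endothelial barcodes. Wdr17 had 778 CPM in TAC+ART members, 416 in TAC and 1139 in Sham, against 7.64, 6.34 and 8.79 CPM in other endothelial barcodes of TAC+ART, TAC and Sham. Rasgef1b, a guanine nucleotide exchange factor for Rap proteins, had 1085, 1259 and 1041 CPM in TAC+ART, TAC and Sham members and was even across libraries, with log2 ratios of 6.29, 5.84 and 5.90. Nrxn3, a neurexin best known from synapses, had log2 ratios of 5.86, 6.30 and 5.27 in TAC+ART, TAC and Sham. Gpm6a, a membrane glycoprotein, had 5.34, 4.89 and 5.71, and Epha7, an ephrin receptor, 5.45, 4.72 and 5.93 in TAC+ART, TAC and Sham. Kank1, an adaptor of focal adhesions, was the most even of these, with 4.45, 4.4 and 4.49 in TAC+ART, TAC and Sham. Not all of these genes were particular to members. Wdr17 was also among the leading genes of the lymphatic endothelial-like and epicardial-like clusters, and Gpm6a of the epicardial-like cluster. The limit on Reln, Mmrn1 and Prox1 kept barcodes rich in these lymphatic genes out of both compared sets.

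Vwf, Bmx and some genes of the BMP pathway were also higher in members. Vwf, which tethers platelets to the vessel wall, had 1350, 1231 and 1169 CPM in TAC+ART, TAC and Sham members against 189, 209.5 and 181 CPM in other endothelial barcodes of the TAC+ART, TAC and Sham libraries. Bmx, a tyrosine kinase that is an arterial and endocardial marker in mice, had log2 ratios of 3.82, 3.69 and 4.10 in TAC+ART, TAC and Sham. Of the BMP and TGF-beta list, 23 of 26 genes passed. In all 3 libraries 8 were higher and 2 lower, beside 5.26% and 6.94% of all genes. The higher ones included the receptor Bmpr1a, with log2 ratios of 2.64, 3.00 and 3.14 in TAC+ART, TAC and Sham. The inhibitor Smad6 had 1.66, 2.13 and 3.00 in TAC+ART, TAC and Sham.

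Capillary genes were low in members. All 13 listed capillary genes passed and all 13 were at least 1.5-fold lower in each library, with list medians of -2.89 in TAC+ART, -2.72 in TAC and -2.92 in Sham. Gpihbp1, which anchors lipoprotein lipase on capillaries, had 31.8, 37.6 and 32.8 CPM in TAC+ART, TAC and Sham members, against 249.8, 297 and 253 CPM in other endothelial barcodes of TAC+ART, TAC and Sham. Cd36, the fatty acid transporter, had log2 ratios of -2.33, -2.10 and -1.93, and Pparg, a regulator of fatty acid genes, -3.81, -3.09 and -3.25 in TAC+ART, TAC and Sham. Meox2 and Tcf15, a pair of transcription factors that control fatty acid transport in cardiac endothelium, had log2 ratios between -3.25 and -2.87. Ablim3, an actin-binding protein, was at -4.83, -3.34 and -3.73 in TAC+ART, TAC and Sham.

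The interferon and MHC list was also lower in members than in other endothelium, with 22 genes passing, 0 higher and 7 lower in all 3 libraries. Of the 14 Notch genes that passed, 0 were higher and 2 lower. Of 7 venous genes, 4 were higher and 1 lower, while of 12 arterial genes 2 were higher and 5 lower. Beside these counts, 5.26% of all genes were higher and 6.94% lower in all 3 libraries. Aplnr, the apelin receptor, had 1, 8 and 3 UMIs in TAC+ART, TAC and Sham members.

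**Figure D2:**
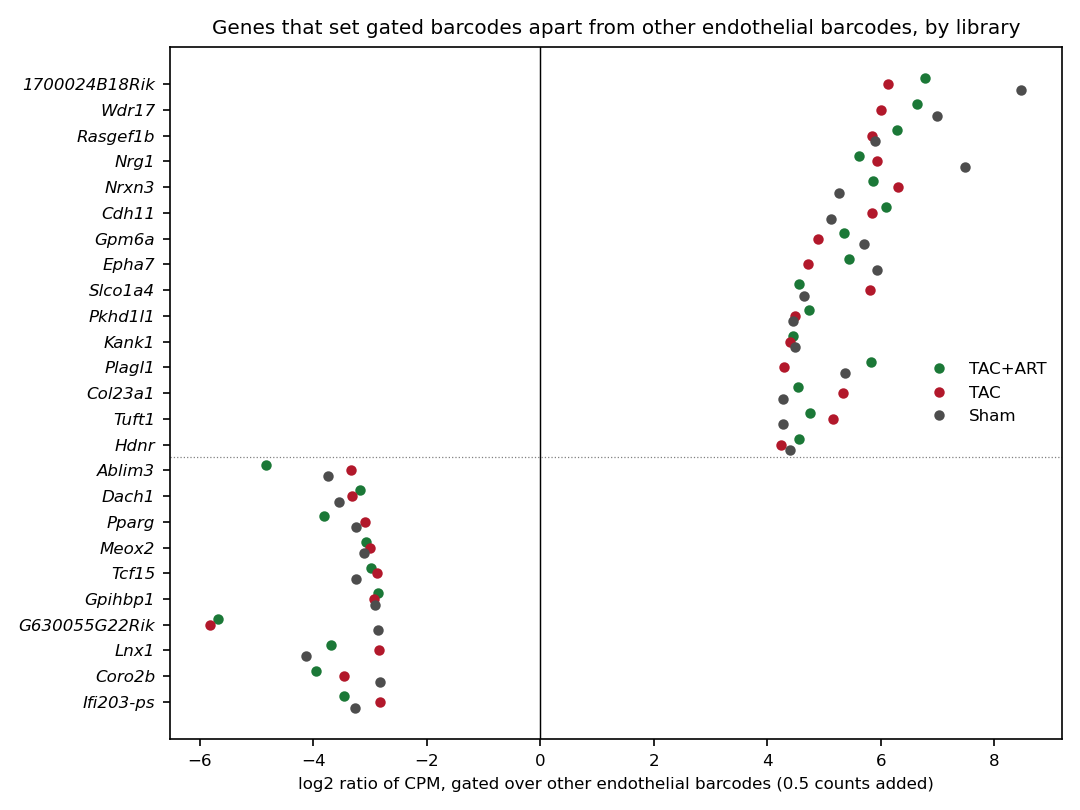
Log2 ratio of CPM between gated and other endothelial barcodes (horizontal axis) for the 15 highest and 10 lowest genes, with 1 point per library in green (TAC+ART), red (TAC) and grey (Sham). Wdr17 lies between 6.0 and 7.0 in the 3 libraries, and Gpihbp1, a capillary gene, lies between -2.94 and -2.86.

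Nrg1, the neuregulin 1 gene (chr8:31814551-32884029, minus strand, mm10), had the largest fold between its highest and lowest library among the 10 endocardial genes outside the rule that passed the filter. Members held 181 Nrg1 UMIs in TAC+ART, 1255 in TAC and 889 in Sham, which is 958, 2948 and 1387 CPM in TAC+ART, TAC and Sham. TAC was the highest and TAC+ART the lowest, and 1 TAC+ART member held 97 of the 181 UMIs. The log2 ratio was -1.62 for TAC+ART over TAC (-1.85 to -1.40), 1.09 for TAC over Sham (0.96 to 1.21) and -0.53 for TAC+ART over Sham (-0.77 to -0.30).

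In the gate without the Dcn limit Nrg1 stood at 1809.9 CPM in TAC+ART, 4248 in TAC and 1417 in Sham. TAC remained the highest, whereas TAC+ART lay above Sham there (log2 ratio 0.35) and below it in the gate. Members with 2 or 3 UMIs over the first exclusion set had 495, 2988 and 1124 Nrg1 CPM in TAC+ART, TAC and Sham. Barcodes just outside, with 4 or 5, had 2343, 3198 and 1401 CPM in TAC+ART, TAC and Sham. The step at that limit was thus largest in TAC+ART. In other endothelial barcodes the level was 19.3 CPM in TAC+ART, 48.2 in TAC and 7.61 in Sham, and in all barcodes outside the gate 131, 290 and 51.3 CPM in TAC+ART, TAC and Sham. That rest still held the barcodes that only the Dcn limit had removed, and they carried 76.2%, 78.2% and 75.6% of its Nrg1 UMIs in TAC+ART, TAC and Sham. Outside both the wider gate and the endocardial-like cluster, Nrg1 stood at 16.5, 46.3 and 11.2 CPM in TAC+ART, TAC and Sham, with log2 ratios of -1.49 for TAC+ART over TAC and 2.04 for TAC over Sham. TAC was the highest library there too, at much lower levels, and the part this had in the members' values was not tested.

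Nrg1 was spread unevenly over members. It was not detected in 27 of 39 TAC+ART members, 31 of 78 TAC members and 89 of 136 Sham members. Members with at least 10 Nrg1 UMIs numbered 4 in TAC+ART (10.3%, 2.87 to 24.2), 23 in TAC (29.5%, 19.7 to 40.9) and 21 in Sham (15.4%, 9.82 to 22.6). These few held 85.6% of the members' Nrg1 UMIs in TAC+ART, 93.1% in TAC and 90.2% in Sham, and the highest single member had 97, 119 and 129 UMIs in TAC+ART, TAC and Sham. The limit of 10 UMIs was chosen after the values were seen and marks a range, with 2, 8 and 7 members at 5 to 9 UMIs in TAC+ART, TAC and Sham.

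Without the Dcn limit the shares with at least 10 Nrg1 UMIs were 25.5% in TAC+ART (20.9 to 30.6), 39.5% in TAC (34.6 to 44.6) and 18.6% in Sham (13.6 to 24.5). Thinned to 2000 UMIs per barcode, 26.3% of 38 TAC+ART members, 52.0% of 75 TAC members and 27.3% of 132 Sham members held an Nrg1 UMI, and the unthinned shares were 30.8%, 60.3% and 34.6% in TAC+ART, TAC and Sham. Thinned to 1000 UMIs, the shares were 20.5%, 44.9% and 23.5% in TAC+ART, TAC and Sham members. Cardiomyocyte-like barcodes, with medians of 6212, 5202 and 7564 UMIs in TAC+ART, TAC and Sham, gave a background of 1.04%, 4.56% and 0.317% thinned to 1000 UMIs and 5.71%, 16.2% and 3.49% unthinned. TAC had the largest share in members at each depth, and also the largest background.

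**Figure D3:**
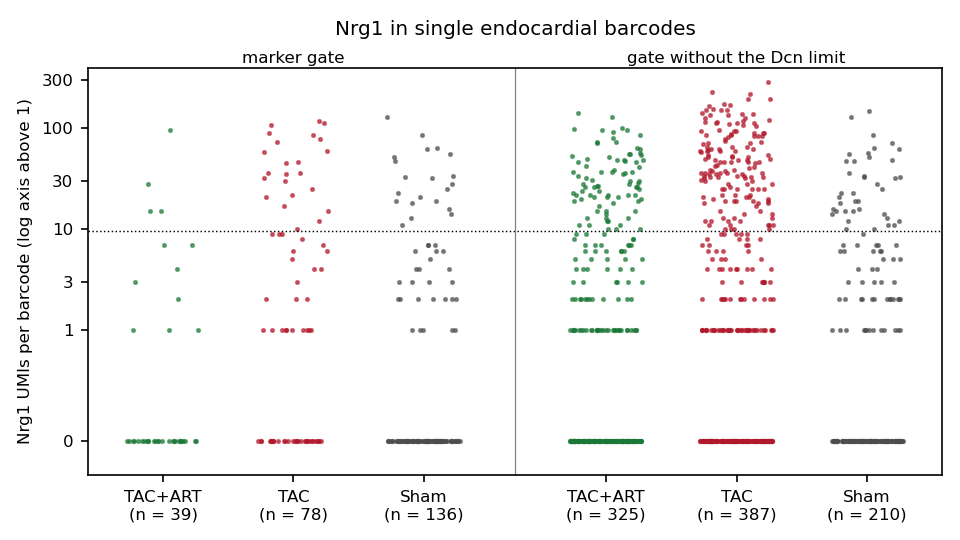
Nrg1 UMIs per barcode (vertical axis, logarithmic above 1, 0 at the bottom) for single barcodes of the marker gate on the left and of the gate without the Dcn limit on the right, each in the order TAC+ART, TAC and Sham, with the number of barcodes under each column. The dotted line separates barcodes with 10 or more Nrg1 UMIs, which number 4, 23 and 21 in the gate and 83, 153 and 39 without the Dcn limit.

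Barcodes with much Nrg1 also differed from those with none in other genes. In the gate without the Dcn limit, the log2 ratio between barcodes with at least 10 Nrg1 UMIs and those with 0 was 3.73, 4.52 and 3.49 for Tuft1, first known from tooth enamel, in TAC+ART, TAC and Sham. Bmp6, a secreted BMP ligand, had ratios of 2.19, 2.95 and 2.61, and Ephx2, a soluble epoxide hydrolase, 2.04, 3.12 and 1.72 in TAC+ART, TAC and Sham. The adhesion molecule Vcam1 had ratios of 0.82, 1.86 and 1.30 in TAC+ART, TAC and Sham.

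The opposite held for Igfbp5, an insulin-like growth factor binding protein, with ratios of -4.01, -5.26 and -2.34 in TAC+ART, TAC and Sham. Kcnc2, a voltage-gated potassium channel, had ratios of -2.88, -5.10 and -4.03, and Ldb2, a LIM-domain binding cofactor, -2.53, -3.38 and -2.79 in TAC+ART, TAC and Sham. Vwf had no common direction, at -0.06, 0.81 and -0.27. These genes were ranked on the same barcodes and their ratios are a description. Barcodes rich in Nrg1 were also deeper, with medians of 6358, 6522 and 4920 UMIs in TAC+ART, TAC and Sham against 5921, 5278 and 4754 in those with none.

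The gate genes were themselves higher in the Nrg1-rich barcodes. Tmem108 had rich over 0 ratios of 0.90, 1.34 and 0.75 in TAC+ART, TAC and Sham, Npr3 0.89, 1.19 and 0.64, Smoc1 1.34, 1.76 and 1.21, and Chrm3 1.13, 1.24 and 1.29. Only 84.3%, 86.8% and 86.2% of the wider gate lay in the endocardial-like cluster in TAC+ART, TAC and Sham, and Kcnc2 and Ldb2 are among the leading genes of other endothelial-like clusters. Within the endocardial-like cluster the ratios were 3.43, 4.09 and 3.22 for Tuft1, 2.08, 2.54 and 2.39 for Bmp6, -4.36, -5.59 and -2.62 for Igfbp5 and -3.23, -5.55 and -4.28 for Kcnc2 in TAC+ART, TAC and Sham. Gate genes kept ratios between 0.30 and 1.35 there. How far the mix of barcodes set these values was not tested.

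Pressure load was the first contrast of the study, TAC over Sham. Among 7869 genes with at least 20 UMIs over the members of both libraries, 1223 (15.5%) were at least 1.5-fold higher and 1264 (16.1%) at least 1.5-fold lower in TAC. In the gate without the Dcn limit, 12.2% were higher and 14.9% lower. The contrast of TAC+ART with TAC uses the same TAC library, so the 2 contrasts are not independent of each other.

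Genes of endothelial activation were higher in TAC members. Of 11 listed genes that passed, 6 were at least 1.5-fold higher and 0 lower, with a median log2 ratio of 1.43, against -0.01 over all genes. In the gate without the Dcn limit 10 of 14 were higher and the median was 1.5. Among all genes 15.5% were higher and 16.1% lower in the gate, and 12.2% and 14.9% without the Dcn limit. Vcam1, the leukocyte adhesion molecule, had 328 CPM in TAC+ART, 813 in TAC and 301 in Sham members, a TAC over Sham log2 ratio of 1.43 (1.17 to 1.69). Icam1, another adhesion molecule for leukocytes, had 79.4, 249 and 73.4 CPM in TAC+ART, TAC and Sham, with a ratio of 1.75 (1.25 to 2.29). Csf1, the macrophage growth factor, had 63.5, 305 and 70.2 CPM in TAC+ART, TAC and Sham, with a ratio of 2.11 (1.62 to 2.64).

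The TAC library was the highest for all 3 of these, while TAC+ART and Sham were close. Csf1 was found in 42 of 78 TAC members, Icam1 in 35 and Vcam1 in 54. In TAC, 1 member held 35 of the 130 Csf1 UMIs and 1 held 50 of the 346 Vcam1 UMIs. Outside both the wider gate and the endocardial-like cluster Vcam1 stood at 84.8, 124 and 74.2 CPM, Csf1 at 69.0, 128 and 64.9 CPM and Icam1 at 35.1, 99.8 and 24.3 CPM in TAC+ART, TAC and Sham. The TAC over Sham log2 ratio there was 0.74 for Vcam1 and 0.98 for Csf1, smaller than in members, and 2.04 for Icam1, which was no smaller than in members. What part this had in the members' values was not tested. Vwf and Icam2, also on the list, were both at a log2 ratio of 0.07.

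NF-kB genes were next. Of 9 that passed, 6 were higher and 0 lower in TAC, with a median of 0.71, and without the Dcn limit 7 of 16 were higher and 1 lower. Shares over all genes were 15.5% higher and 16.1% lower, and 12.2% and 14.9% without the Dcn limit. Birc3, an inhibitor of apoptosis that NF-kB induces, had 7, 62 and 28 UMIs, or 37.1, 146 and 43.7 CPM, in TAC+ART, TAC and Sham members, and a TAC over Sham log2 ratio of 1.72 (1.07 to 2.44). Outside both the wider gate and the endocardial-like cluster Birc3 stood at 77.0, 116 and 69.7 CPM in TAC+ART, TAC and Sham. TAC was the highest library there too, and the part this had in the members' values was not tested. Nfkbia, the NF-kB inhibitor that is itself a target, had 101, 240 and 112 CPM in TAC+ART, TAC and Sham, a ratio of 1.09 (0.64 to 1.55). The subunit gene Relb had 2, 35 and 22 UMIs in TAC+ART, TAC and Sham.

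The receptor side of that list was thin. Ly96, which encodes the lipopolysaccharide co-receptor MD2 named in the study's title, had 2, 4 and 7 UMIs in TAC+ART, TAC and Sham members. It was found in 5.13%, 3.85% and 4.41% of TAC+ART, TAC and Sham members, against 6.56%, 6.97% and 6.0% of other endothelial barcodes and 23.6%, 22.7% and 23.8% of macrophage-like barcodes in TAC+ART, TAC and Sham. A difference in Ly96 between libraries was not detectable at this depth. Tlr4, its partner receptor, had 22, 23 and 30 UMIs in TAC+ART, TAC and Sham, a TAC over Sham log2 ratio of 0.21, and a TAC+ART over TAC ratio of 1.11 (0.20 to 2.02) that was 0.05 without the Dcn limit.

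Basement membrane and vascular matrix genes were higher in TAC members as well. Of 23 that passed, 13 were higher and 2 lower, with a median of 0.80, and without the Dcn limit 9 of 23 were higher, 0 lower and the median was 0.48. Shares over all genes were 15.5% higher and 16.1% lower, and 12.2% and 14.9% without the Dcn limit. Col4a1, a chain of the main basement membrane collagen, had 206, 418 and 105 CPM in TAC+ART, TAC and Sham members, a TAC over Sham log2 ratio of 1.99 (1.59 to 2.43). Col15a1, a collagen linking basement membrane to stroma, had 74.1, 98.7 and 17.2 CPM in TAC+ART, TAC and Sham, with a ratio of 2.48 (1.54 to 3.63). The chains Col4a3 and Col4a4, found mainly in specialised basement membranes, went the other way, at -0.75 and -0.67 in the gate and -0.39 and -0.41 without the Dcn limit.

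Matrix genes had ratios of the same sign outside the gate. In all barcodes outside the gate the TAC over Sham log2 ratio was 1.53 for Col4a1, 1.37 for Col4a2 and 1.38 for Col15a1. Levels of Col4a1 outside both the wider gate and the endocardial-like cluster were 363, 733 and 250 CPM in TAC+ART, TAC and Sham. Those of Col15a1 were 261, 359 and 136 CPM there. Both genes thus stood lower in members than outside in each library. The summed level of 10 fibroblast markers in members was 2223, 1881 and 1072 CPM in TAC+ART, TAC and Sham, against 6729, 5475 and 4391 CPM in the rest of the libraries, with 1, 0 and 0 of the markers at 0 in TAC+ART, TAC and Sham. In the gate without the Dcn limit these markers, Dcn among them, summed to 3931, 2820 and 1519 CPM in TAC+ART, TAC and Sham. Their part in the matrix values was not tested. The fibroblast collagens Col1a1 and Col3a1 had ratios of 2.74 and 1.77 in members and 2.19 and 1.71 in the rest.

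Postn, which encodes the matricellular protein periostin, was found in most TAC members. It had 19, 115 and 7 UMIs in TAC+ART, TAC and Sham members, in 12, 57 and 7 barcodes, or 101, 270 and 10.9 CPM. The TAC over Sham log2 ratio was 4.53 in the gate (3.54 to 5.97), 4.53 without the Dcn limit, 4.75 in other endothelial barcodes and 3.22 in all other barcodes. Postn stood at 223, 534 and 55.1 CPM outside both the wider gate and the endocardial-like cluster in TAC+ART, TAC and Sham, above members in each library. Its part from RNA of other cells was not tested. The muscle genes Acta1 and Ankrd1 were at 3.67 and 2.34 in members and 3.57 and 2.31 in the rest, and the heat shock gene Hsph1 was at 2.30 and 2.10.

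Some of the largest ratios rested on a few members. Olr1, the endothelial receptor for oxidised low-density lipoprotein, had 0, 48 and 1 UMIs in TAC+ART, TAC and Sham members, and 41 of the 48 came from 1 TAC member. Arsj, a sulfatase, had 66 UMIs in TAC, 44 of them in 1 member. Neurl3, a ubiquitin ligase, was found in more barcodes, with 3, 45 and 13 UMIs in 3, 19 and 13 members of TAC+ART, TAC and Sham, and a log2 ratio of 2.34 in the gate and 2.06 without the Dcn limit.

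Clock genes were lower in TAC members. Of 14 that passed, 1 was higher and 9 were lower, with a median of -0.88, and without the Dcn limit 11 of 16 were lower and 2 higher, with a median of -0.83. Among all genes 15.5% were higher and 16.1% lower, and 12.2% and 14.9% without the Dcn limit. Hlf, a clock-controlled transcription factor, had 23, 32 and 128 UMIs, or 122, 75.2 and 199.8 CPM, in TAC+ART, TAC and Sham members, a TAC over Sham log2 ratio of -1.39 (-2.02 to -0.84). Per3 and Dbp, a period gene and a clock output factor, had TAC over Sham log2 ratios of -1.34 and -1.21. The core gene Clock itself was at 0.71. Hlf had a ratio of -2.29 in the rest of the libraries. The sources used here do not give the time of day at which tissue was taken, which cannot be told apart from the group.

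Among the genes lowest in TAC members was Fmo2, a flavin-containing monooxygenase (chr1:162874317-162898726, minus strand, mm10). It had 46, 26 and 200 UMIs in TAC+ART, TAC and Sham members, or 243.5, 61.1 and 312 CPM. TAC was the lowest and the other 2 libraries were near each other. The TAC over Sham log2 ratio was -2.33 in the gate (-3.0 to -1.76), -1.97 without the Dcn limit and -1.10 in the rest. The transcript 9330175M20Rik had 38, 18 and 144 UMIs in TAC+ART, TAC and Sham, with a ratio of -2.38, and Gm19522 had 10, 5 and 61 UMIs, with -2.89.

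Endocardial genes outside the rule did not move as 1 group between TAC and Sham. Of 10 that passed, 3 were higher, 2 lower and the median was 0.23, beside 15.5% of all genes higher and 16.1% lower. Without the Dcn limit 5 of 11 were higher, 2 lower and the median was 0.39, beside 12.2% and 14.9% of all genes. Cdh11 had 1112, 1705 and 771 CPM in TAC+ART, TAC and Sham members, a TAC over Sham log2 ratio of 1.14 (0.98 to 1.31). Cytl1, a small secreted protein, had 291, 98.7 and 234 CPM in TAC+ART, TAC and Sham, a ratio of -1.23 (-1.78 to -0.74), and the forkhead factor Foxc1 had 201, 101 and 197 CPM, a ratio of -0.95 (-1.50 to -0.45). Among genes that set members apart from the other endothelial barcodes, Wdr17 was at -1.45 and Tuft1 at 2.10.

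Bmp6 (chr13:38345107-38500302, plus strand, mm10) was a second secreted signal that was highest in TAC members. Its level was 1260, 2363 and 1526 CPM in TAC+ART, TAC and Sham members and 1604, 3071 and 1718 CPM without the Dcn limit. The TAC over Sham log2 ratio was 0.63 in the gate (0.50 to 0.76), while in other endothelial barcodes it was -1.26, with 852, 404.5 and 969 CPM in TAC+ART, TAC and Sham. TAC was thus the highest library for Bmp6 in members and the lowest in other endothelium. The BMP and TGF-beta list as such was mixed, with 4 of 20 genes higher, 4 lower and a median of -0.08.

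Other signalling lists had genes on both sides or few past the fold. Of 11 Notch genes 1 was higher and 3 lower, of 13 VEGF, angiopoietin and apelin genes 1 was higher and 2 lower, and of 12 flow-responsive genes 2 were higher and 0 lower. Of 9 natriuretic peptide and endothelin genes 4 were higher and 2 lower. Nppa was among them, at a log2 ratio of 4.06 in members and 4.76 in the rest, as was Edn1, which encodes endothelin 1, at 1.14. Interferon and MHC genes had 1 of 9 higher and 2 lower. Beside these counts, 15.5% of all genes were higher and 16.1% lower. The rule gene Npr3 had a ratio of -0.98 in the gate and -0.86 without the Dcn limit.

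Artesunate was the second contrast, TAC+ART over TAC, with 39 and 78 members. Of 5760 genes with at least 20 UMIs over both, 837 (14.5%) were at least 1.5-fold higher in TAC+ART and 943 (16.4%) lower. Without the Dcn limit 13.4% were higher and 7.37% lower. An action of the drug on the endocardium and one elsewhere in the heart cannot be told apart here.

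Activation and NF-kB genes were lower in TAC+ART members. Of 10 activation genes that passed, 0 were higher and 5 lower, with a median log2 ratio of -0.82, against 0.01 over all genes, and without the Dcn limit 8 of 14 were lower with a median of -1.06. Csf1 was at -2.21 in the gate (-3.25 to -1.41) and -1.76 without the Dcn limit. Icam1 was at -1.61 (-2.54 to -0.86) and -1.61, and Vcam1 at -1.30 (-1.72 to -0.91) and -1.14. Outside the wider gate and the endocardial-like cluster these genes were at -0.89 for Csf1, -1.51 for Icam1 and -0.55 for Vcam1. Of 9 NF-kB genes 1 was higher and 7 lower, with a median of -1.22, and without the Dcn limit 9 of 16 were lower and 0 higher. Beside both lists, 14.5% of all genes were higher and 16.4% lower, and 13.4% and 7.37% without the Dcn limit. Birc3 was at -1.89 (-3.35 to -0.85) and -1.78, and Nfkbia at -1.22 (-2.04 to -0.54) and -1.08.

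Set against Sham, the TAC+ART values were close for Vcam1, Icam1, Csf1 and Birc3. The lists as such were less even. Of 8 activation genes that passed, 1 was higher and 0 lower in TAC+ART, with a median of 0.14. Of 9 NF-kB genes 2 were higher and 4 lower, with a median of -0.16. Without the Dcn limit 1 of 9 activation genes was higher and 0 lower, and 1 of 14 NF-kB genes higher and 3 lower. Over all genes, 16.3% of 6950 were at least 1.5-fold higher and 16.6% lower in TAC+ART members, and without the Dcn limit 11.9% were higher and 9.04% lower. The TAC+ART over Sham log2 ratio was 0.13 for Vcam1 (-0.31 to 0.54), 0.15 for Icam1 (-0.83 to 0.98), -0.10 for Csf1 (-1.20 to 0.80) and -0.16 for Birc3 (-1.68 to 0.99). Without the Dcn limit they lay between -0.22 and 0.18. The intervals are wide, since 12 to 62 UMIs in TAC+ART stand behind the first 3 genes and 7 behind Birc3, so a difference of up to about their bounds was not detectable at this depth.

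Interferon and MHC genes were higher in TAC+ART members. Of 8 that passed, 5 were higher and 0 lower, with a median of 0.69, and without the Dcn limit 13 of 22 were higher, 0 lower and the median was 0.66. Among all genes 14.5% were higher and 16.4% lower, and 13.4% and 7.37% without the Dcn limit. B2m, the light chain of MHC class I, had 118, 103 and 129 UMIs, or 625, 242 and 201 CPM, in TAC+ART, TAC and Sham members. The TAC+ART over TAC log2 ratio of B2m was 1.37 in the gate (0.97 to 1.76), 0.76 without the Dcn limit and 0.20 in the rest. The class I heavy chain H2-K1 was at 0.65 and 0.73, and the interferon-induced GTPases Gbp4 and Iigp1 at 1.51 and 0.77 in the gate and 0.66 and 1.81 without the limit.

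Basement membrane genes were near the background of all genes once the Dcn limit was dropped. Of 21 that passed, 1 was higher and 5 lower in TAC+ART, with a median of -0.26, beside 16.4% of all genes lower. Without the Dcn limit 1 of 24 was higher and 2 lower, with a median of -0.07, beside 7.37% of all genes lower. Col4a1 was at -1.0 in the gate and -0.58 without the limit, while Col15a1 was at -0.38 and -0.03. Relative to Sham, TAC+ART members were higher for both, with log2 ratios of 0.99 for Col4a1 (0.37 to 1.57) and 2.10 for Col15a1 (0.86 to 3.39). Postn had a TAC+ART over Sham ratio of 3.14 (1.89 to 4.70), which was 1.96 in the rest.

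Of 11 clock genes that passed, 4 were higher and 0 lower in TAC+ART than in TAC, with a median of 0.45. Beside this, 14.5% of all genes were higher and 16.4% lower. Without the Dcn limit 7 of 16 were higher and 1 lower, with a median of 0.34, beside 13.4% and 7.37% of all genes. Hlf was at 0.70 in members (-0.14 to 1.51), 1.04 without the Dcn limit and 1.72 in the rest. Fmo2 had a TAC+ART over TAC log2 ratio of 1.98 (1.27 to 2.75), though 19 of its 46 TAC+ART UMIs came from 1 member, and the ratio was 1.82 without the Dcn limit. Cytl1 was at 1.56 (0.96 to 2.18) and 1.25, and Foxc1 at 1.0 and 0.88. For each of Fmo2, Cytl1 and Foxc1 the TAC+ART level in members was closer to Sham than to TAC. Outside both the wider gate and the endocardial-like cluster Fmo2 stood at 249, 118 and 247 CPM in TAC+ART, TAC and Sham. Cytl1 stood there at 17.0, 9.73 and 18.1 CPM and Foxc1 at 17.6, 11.5 and 12.9 CPM in TAC+ART, TAC and Sham. TAC was the lowest library there too for each gene, and the part this had in the members' values was not tested.

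Bmp6 was at -0.91 (-1.12 to -0.70) in TAC+ART members and -0.94 without the Dcn limit, while it was at 1.07 in other endothelial barcodes. Cdh11 was at -0.61 and -0.85, and Tuft1 at -1.32 and -0.92. Of 20 BMP and TGF-beta genes 0 were higher and 3 lower, and of 9 Notch genes 1 was higher and 1 lower. Over all genes 14.5% were higher and 16.4% lower. Without the Dcn limit 4 of 24 BMP and TGF-beta genes were higher and 3 lower, and of 16 Notch genes 0 were higher and 0 lower. Over all genes the shares were then 13.4% and 7.37%. Kdr and Nrp1, receptors of vascular endothelial growth factor, were at 0.85 and -0.95 in the gate and 0.33 and -0.38 without the Dcn limit.

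Among the lowest genes in TAC+ART, many had almost no UMIs in the 39 members. Dgkb, a diacylglycerol kinase, had 0 UMIs in TAC+ART and 69 in TAC, at least 10.2-fold lower against a floor of 3 UMIs, but 3 TAC members held all 69. Olr1 had 0 UMIs and was at least 7.10-fold lower, with 41 of the TAC UMIs in 1 member. Plce1, a phospholipase C, had 1 UMI against 65 and a log2 ratio of -4.28 (-10.18 to -2.32), which was -0.30 without the Dcn limit. Kcnab1, a potassium channel subunit, had 2 UMIs against 96, with all 96 in 5 TAC members. Members inside the endocardial-like cluster held 0 Dgkb UMIs in TAC+ART and 0 in TAC, and 2 Kcnab1 UMIs in each of these libraries, so the values of both genes rest on members outside it. Both are among the leading genes of the smooth muscle-like cluster, which held 3 TAC members and 0 TAC+ART members. Their values thus do not describe endocardial-like barcodes. Neurl3 had 3 UMIs against 45, a ratio of -2.53 (-5.07 to -1.10) that was -2.20 in the wider gate.

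The same holds on the high side. Sdc2, a cell surface proteoglycan, had 36, 22 and 28 UMIs in TAC+ART, TAC and Sham members with a TAC+ART over TAC ratio of 1.87, and 16 of the 36 were in 1 member. Without the Dcn limit it was at 0.67. Itm2c was at 1.72 in the gate and 0.62 without the limit, and Pkn3, a protein kinase, at 1.54 and 0.20. The 325 TAC+ART barcodes of the wider gate thus gave smaller ratios for all 3 genes.

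**Figure D4:**
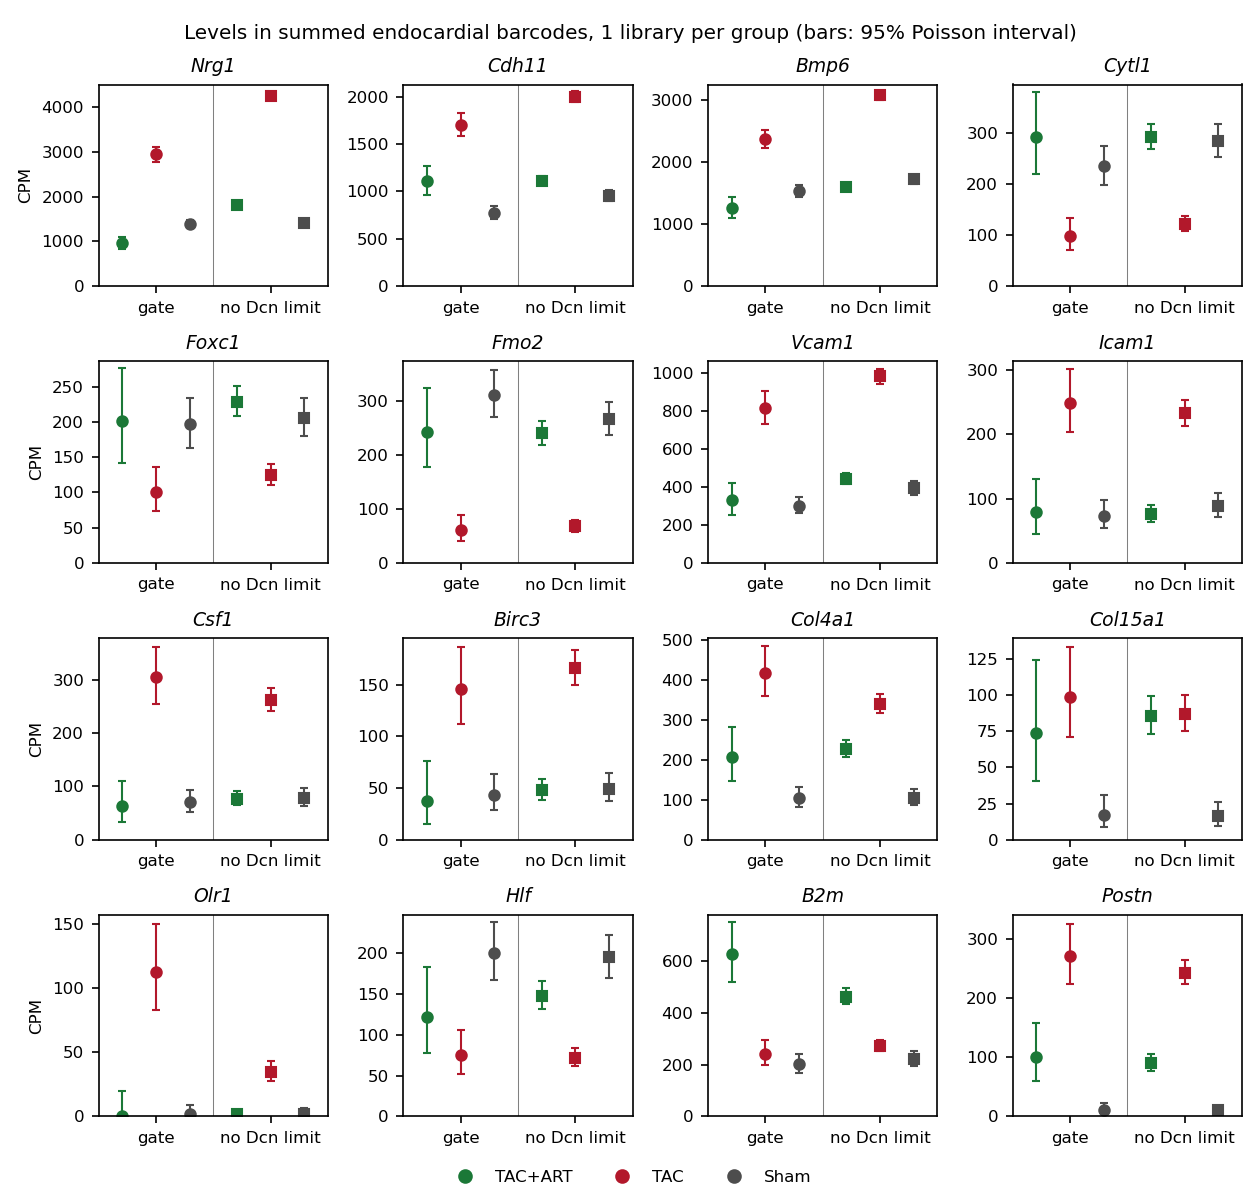
Levels of 16 genes in summed barcodes (CPM, vertical axes from 0) for TAC+ART (green), TAC (red) and Sham (grey), circles for the marker gate on the left of each panel and squares for the gate without the Dcn limit on the right, with 95% Poisson intervals. Nrg1, Vcam1, Icam1, Csf1 and Birc3 are highest in TAC in both gates, Fmo2, Cytl1, Foxc1 and Hlf are lowest in TAC, and B2m is highest in TAC+ART.

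**Figure D5:**
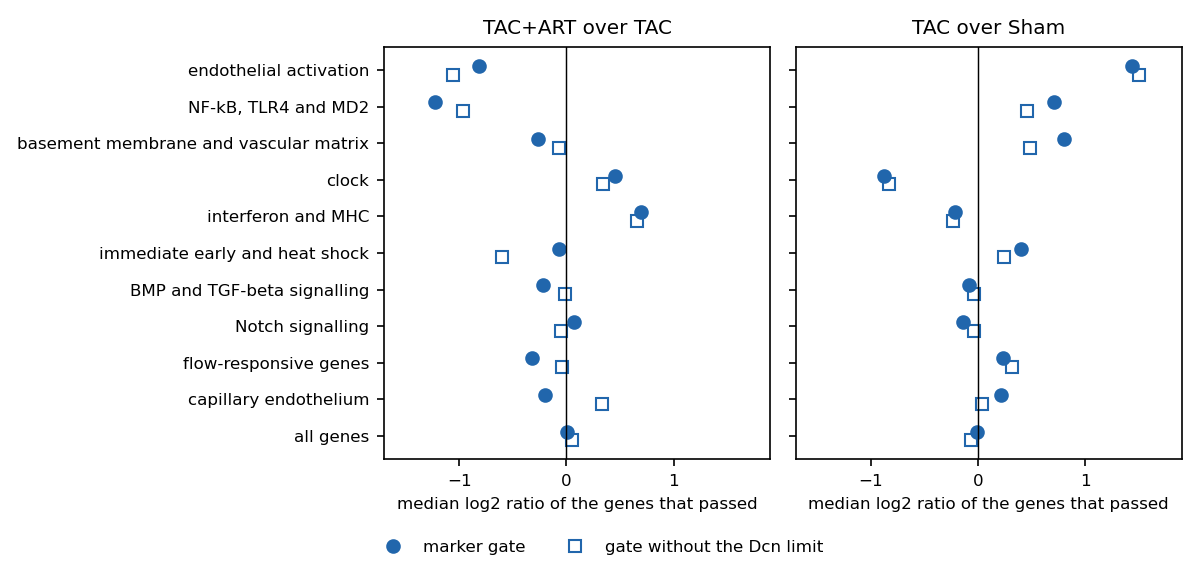
Median log2 ratio of gene lists (horizontal axis) for TAC+ART over TAC on the left and TAC over Sham on the right, filled circles for the marker gate and open squares for the gate without the Dcn limit, over the genes of each list that passed the UMI filter. The endothelial activation list lies at -0.82 and -1.06 on the left and at 1.43 and 1.5 on the right, while all genes lie between -0.07 and 0.05.

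Markers of other cell types in members gave the level of foreign RNA beside these results. The 10 cardiomyocyte markers summed to 6395, 5391 and 5729 CPM in TAC+ART, TAC and Sham members, against 10278, 8422 and 11831 CPM in the rest of the libraries. Macrophage markers summed to 270, 268 and 119 CPM in TAC+ART, TAC and Sham members against 2331, 2446 and 1335 CPM in the rest, with 1, 0 and 0 of 10 at 0. Smooth muscle markers, 5 in all, summed to 42.3, 355 and 187 CPM in TAC+ART, TAC and Sham members, and the TAC value lay above the 98.3 CPM of the rest of that library. The pericyte markers were at 201, 193 and 323 CPM, and the 4 Schwann cell markers at 0, 11.7 and 14.0 CPM in TAC+ART, TAC and Sham. The part of these in the members' values was not tested.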

How the data were processed

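The authors' deposited matrices hold UMI counts, not normalized, for 3 libraries. Per the submitters' processing notes, Cell Ranger and Seurat were used with build mm10; the sources used here give no versions. The rule was applied to every barcode, without a doublet filter. UMIs were summed over the chosen barcodes of each library and divided by their total (CPM). Log2 ratios had 0.5 counts added to each sum, with exact conditional binomial intervals, and shares had Clopper-Pearson intervals. A gene counted as higher or lower at 1.5-fold with at least 20 UMIs over both sums. Thinning drew 1000 or 2000 UMIs per barcode. Clusters came from 3000 variable genes, 30 components, 20 neighbours and Leiden resolution 1, and doublets from a Scrublet-like score that marks 0.8% per 1000 barcodes. The functions were tested on simulated data. Python 3.11.15, numpy 2.4.6, scipy 1.17.1, pandas 2.3.3, scanpy 1.11.5 and scikit-learn 1.9.0 were used. Positions are from GENCODE on GRCm38.

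The members and the 21 gene lists were chosen with earlier results of these data known. Genes named between libraries were the 10 highest and 10 lowest with at least 40 UMIs over both, 50 CPM in the higher and a level there of at least that in the rest divided by 2, with up to 4 members of each list and 8 genes always named. Against other endothelium they were the 15 highest and 10 lowest by the weakest library. Left out of these rankings were mitochondrial, ribosomal protein and haemoglobin genes, Xist, Tsix, Y-linked genes, Malat1, the rule genes and markers of other classes. List members and the 8 genes always named were exempt from this. Some genes that the rule picked are not reported here.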

Additional observations from a re-analysis of the deposited data

How the results depend on the processing

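Each result was recomputed under alternatives, of which the gate without the Dcn limit and the members of the endocardial-like cluster were added after seeing the data. Of 1509 values for single genes, lists and shares, 1287 kept their direction within the interval or within 1.5 times of a count, 217 moved and 5 changed sign. The share's log2 ratio for TAC over Sham was -1.78 in the report, -0.079 in the endocardial-like cluster, -0.10 without the Dcn limit, -1.15 with barcodes thinned to 2000 UMIs and -0.56 as a share of endothelial barcodes. For TAC+ART over TAC it was -0.89, then -0.15 in the cluster and -0.14 without the Dcn limit. Genes higher in TAC+ART than TAC numbered 837 of 5760 that passed (14.5%), then 1641 of 12291 without the Dcn limit (13.4%) and 1670 in the cluster. The counts of genes higher and lower for TAC over Sham, then higher and lower for TAC+ART over TAC, were 444, 375, 186 and 219 thinned to 1000 UMIs, 5067, 5836, 4597 and 3468 with no filter beyond 1 UMI, and 257, 187, 64 and 131 with at least 100 UMIs. Against other endothelium, 319 genes were higher and 417 lower thinned to 1000 UMIs, where fewer genes pass, and 1185 lower without the Dcn limit. The number of genes that pass differs between settings, so these counts cannot be read as changes in share.

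Signs turned for 2 genes and 1 list. For TAC+ART over TAC, Kcnab1 was at 1.44 in the cluster. Dgkb and Kcnab1 gave no ratio without Chrm3 in the gate, with doublets left out or over members of the cluster, and Ly96 none thinned to 1000 UMIs, since both libraries held at most 3 UMIs there. Synpo2 was at 0.23 in the cluster and 0.028 without the Dcn limit, against -2.55. For TAC over Sham, the median of the neuregulin and ERBB list was at -0.27 in the cluster and -0.044 with no filter beyond 1 UMI, against 1.09. The cause was not tested. TMM scaling shifted all ratios by -0.09 for TAC+ART over TAC and by -0.01 for TAC over Sham. No paired analysis was possible because each group had 1 library.

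With 39, 78 and 136 members, a gene under about 20 UMIs gives no usable ratio, and the TAC+ART library sets the widest intervals.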
